A study of Mus musculus with 86 samples.

Results

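What sets the prefrontal cortex apart from the hippocampus and the hypothalamus of the same wild house mice was described from 28 prefrontal cortex libraries, out of 86 RNA-seq libraries in all. The members are the prefrontal cortex columns of the animals that had all 3 regions. Each was set against the hippocampus and the hypothalamus library of the same animal number, as the prefrontal cortex minus the mean of both other regions, so 84 libraries entered the fit. Animal 18 had no hypothalamus library and was left out of the fit.

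The animals were Mus musculus of a wild colony whose home was a barn, where they were fed. They were female or male and were chosen for a small or a large social network size (labelled low or high gregariousness), with 7 animals in each of the 4 groups used here. The labels name no treatment, transgene or age, and the network sizes were the animals' own, not assigned. The brains were frozen, and the regions were taken with micropunches from sections, so each library held every cell type under the punch. Fewer cells of a type and less RNA per cell cannot be told apart in such samples.

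The prefrontal cortex libraries held 33844651 to 75114784 counts on genes (median 47025185), the hippocampus libraries 33711824 to 53962278 and the hypothalamus libraries 34308285 to 81865801. No libraries were identical. Levels of single genes are given in CPM, a gene's count scaled to a common library size with TMM, a method that sets most genes level between libraries. In 7 animals the prefrontal cortex library had a summed level of the markers of blood, striatum, ependyma or choroid plexus above 2 times the median of these libraries. In 4 animals it had Omp, a gene of olfactory sensory neurons, above 10 times the median. The hypothalamus library of animal 19 came from RNA of low integrity, as the study's methods state.

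The prefrontal cortex is a layered sheet of glutamatergic projection neurons and GABAergic interneurons. Its projection neurons share a set of transcription factors with the rest of the pallium, to which the hippocampus also belongs, while the hypothalamus is built of other neurons under other factors. Cortical projection neurons carry dense dendritic spines, whose postsynaptic proteins couple glutamate receptors to calcium signalling. The region receives serotonin, noradrenaline, dopamine and acetylcholine from nuclei that lie outside it.

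Of 18753 genes tested, 6952 (37.1%) were higher and 7796 (41.6%) lower in the prefrontal cortex than in the mean of the other regions (edgeR's quasi-likelihood test with Benjamini-Hochberg adjustment). Because most genes passed that test, the pairwise contrasts were also read: 4587 genes (24.5%) were higher than in each of both regions and 5170 (27.6%) lower. A gene was called cortex-marked if it differed by at least 1 on the log2 scale, which is 2-fold, from each of both regions in the same direction. There were 262 cortex-marked higher genes (1.40% of all tested) and 631 cortex-marked lower genes (3.36%). The median log2 fold change of all genes was -0.02.

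**Figure D1:**
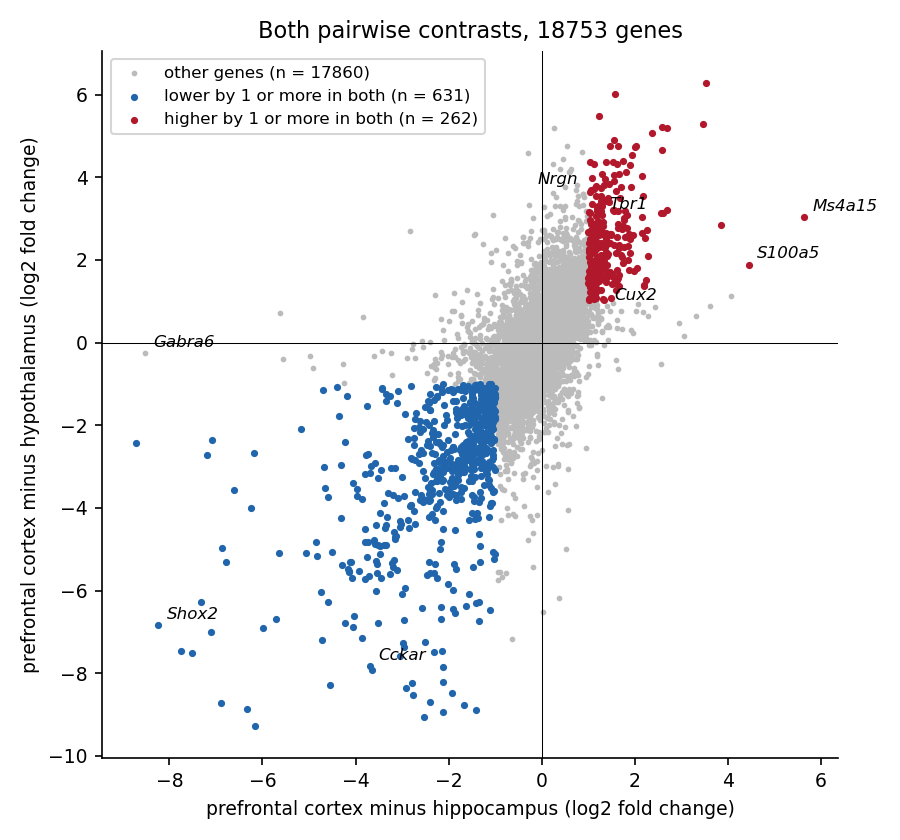
Each point is 1 of the 18753 genes tested, with its log2 fold change against the hippocampus on the x axis and against the hypothalamus on the y axis (28 animals). Red points are the 262 genes higher by at least 1 in both, blue points the 631 genes lower by at least 1 in both, and grey points the others; most red genes sit higher on the y axis than on the x axis.

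Tbr1, Cux2 and Rorb were taken as the markers of the region. Tbr1 encodes a T-box factor of deep-layer and early-born projection neurons, Cux2 a homeodomain factor of the upper layers, and Rorb a nuclear receptor best known from layer 4. Tbr1 lay at 154 to 227 CPM (median 202) in the prefrontal cortex, at 50.7 to 98.6 CPM (median 81.1) in the hippocampus and at 7.53 to 38 CPM (median 12.8) in the hypothalamus. No prefrontal cortex library reached down to any library of the other regions. Cux2 lay at 103 to 349 CPM (median 177) in the prefrontal cortex, at 57.4 to 93.9 CPM (median 71.6) in the hippocampus and at 47.4 to 90.1 CPM (median 61.5) in the hypothalamus. Its groups did not overlap either. Rorb lay at 63.7 to 147 CPM (median 78.3) in the prefrontal cortex, at 27.1 to 55.9 CPM (median 39) in the hippocampus and at 23.5 to 66.7 CPM (median 32.5) in the hypothalamus, and here 1 or more hypothalamus libraries reached into the range of the prefrontal cortex.

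In the fit, Tbr1 was higher by 2.51 ± 0.08 (SE) on the log2 scale (adjusted p 8.9e-37 by edgeR), Cux2 by 1.41 ± 0.05 and Rorb by 1.13 ± 0.06. All 3 genes were higher in the prefrontal cortex than in both own regions in 28 of 28 animals, which held for 6.25% of all genes tested. Every prefrontal cortex library lay above every other library for Tbr1 and Cux2, as for 1.87% of all genes. In each animal the labelled region thus met its markers against both other regions. No other cortical area was sampled, so the markers do not tell the prefrontal cortex from the rest of the cortex. The difference of Tbr1 from the hippocampus, at 1.27, was smaller than that from the hypothalamus, at 3.74, whereas Cux2 (1.29 and 1.53) and Rorb (1.04 and 1.22) differed about as much from both. Rorb stood close to the minimum size. Without the 7 animals with high marker sums its difference from the hippocampus was 0.96 and without the 4 animals with high Omp 0.99, which both ended its place among the cortex-marked genes. Cux2 and Rorb were both highest in the prefrontal cortex library of animal 8, at 349 and 147 CPM.

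**Figure D2:**
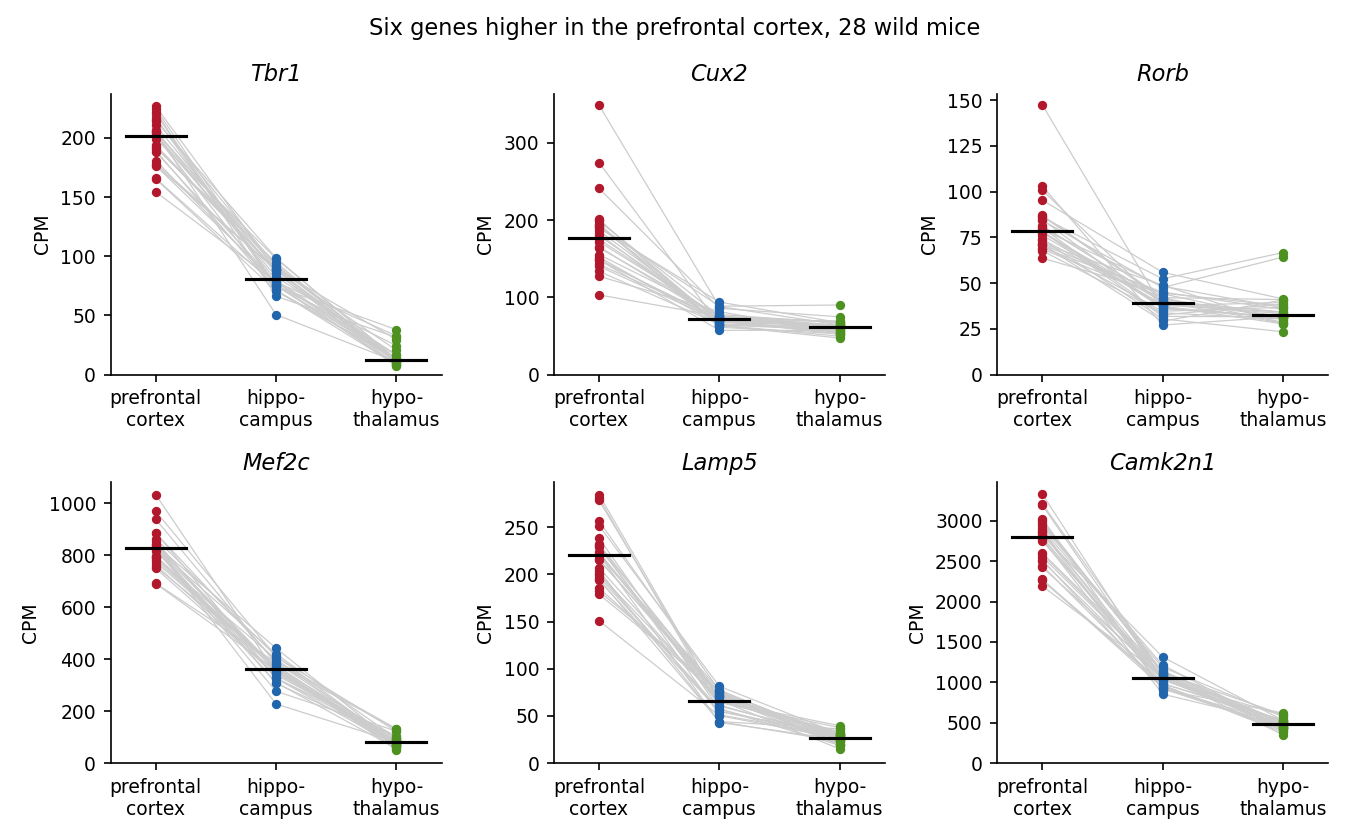
Levels in CPM (y axis, from 0) of Tbr1, Cux2, Rorb, Mef2c, Lamp5 and Camk2n1 in the 3 regions, with 1 point per library, a grey line per animal and a black bar at the median of 28 animals. The prefrontal cortex point stands highest on the line of each animal for all 6 genes.

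The sequence just before the start is where a promoter lies, so the 150 bases upstream of the marker genes Cux2 (chr5:122049852-122050001, minus strand) and Rorb (chr19:19111197-19111346, minus strand) are shown as RefSeq gives them on GRCm38.p6. Neither stretch lies in an exon of GENCODE vM21, and that of Cux2 lies in the first intron of a longer transcript. Capitals mark the motifs found of 6 that were searched on both strands, the cyclic AMP response element (TGACGTCA), the CCAAT box, the GC box (GGGCGG), an E-box (CAGATG), a homeodomain core (TAATTA) and a T-box half-site (TCACACC).
Cux2: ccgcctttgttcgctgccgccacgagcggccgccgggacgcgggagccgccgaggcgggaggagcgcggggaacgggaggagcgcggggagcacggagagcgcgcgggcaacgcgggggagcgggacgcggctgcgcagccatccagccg
Rorb: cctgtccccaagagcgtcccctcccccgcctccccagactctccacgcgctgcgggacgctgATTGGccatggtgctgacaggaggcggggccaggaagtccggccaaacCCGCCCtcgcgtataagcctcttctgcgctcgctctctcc
The Rorb stretch held a CCAAT box, read as ATTGG on the strand shown, 88 bases before the start and a GC box, read as CCGCCC, 40 bases before it, and the Cux2 stretch, of which 80% of bases were G or C, held none of the 6. In the 250 bases before the start, a GC box stood at 53 of the 129 cortex-marked higher genes of at least 1 CPM that had a RefSeq entry (41.1%), against 54.5% of 13323 promoters of all genes tested. The E-box CAGATG stood at 14.7% against 10.9%, and the CCAAT box at 33.3% against 35.5%. The homeodomain core stood at 5.43% against 2.72% and the T-box half-site at 5.43% against 2.91%, each at 7 of the 129 genes. The cyclic AMP response element stood at 1.55% against 2.48%. At 242 cortex-marked lower genes the GC box stood at 45.45%, the E-box at 16.1% and the CCAAT box at 33.9%. The homeodomain core stood there at 4.13%, the T-box half-site at 2.48% and the cyclic AMP response element at 1.65%. A match is a run of letters, not a bound site.

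Among the 262 cortex-marked higher genes, 184 reached a mean of 1 CPM in the prefrontal cortex and 96 of these 10 CPM. Of the 184, 156 were protein-coding in GENCODE vM21. Their median log2 fold change was 1.23 against the hippocampus and 2.30 against the hypothalamus, and 170 of them differed more from the hypothalamus. The minimum size passed through a dense part of the distribution: 20 genes of at least 1 CPM lay between 1 and 1.05 in the smaller of their pairwise differences, and 28 genes between 0.95 and 1.

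The 20 genes with the largest smaller pairwise difference began with Gm16505, a transcribed pseudogene at 0.238 to 3.47 CPM (median 1.36) in the prefrontal cortex and at most 0.343 CPM in the hippocampus and 0.0616 CPM in the hypothalamus. Its log2 fold change was 4.91 ± 0.17 (SE), and since pseudogenes share sequence with their parents, its count is uncertain. 12 of the 20 genes had a mean under 10 CPM. 13 of the 20 had no library of the other regions within the range of the prefrontal cortex (1.87% of all genes). 18 were above both own regions in 28 of 28 animals (6.25% of all genes). The adjusted p-values of the 20 in both pairwise contrasts were 7.85e-06 or lower (edgeR's quasi-likelihood test). The 20 were taken for the size of these same differences, so these counts and p-values describe them and are no test. Melk, Otop2, Myl4, Gm765 and Gm16505 overlap a gene on the opposite strand, and the library kit did not keep the strand, so reads of such pairs cannot be told apart. The 20 also held Nxf7, A830009L08Rik, Prss22, Gm13002, C130074G19Rik, Adam33, Ackr2, Ccn4, Ms4a15 and S100a5 beside those described next.

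Igfn1, which encodes a protein with immunoglobulin-like and fibronectin type III domains, lay at 40.1 to 123 CPM (median 74.8), against a median of 19.2 CPM in the hippocampus and 2.86 CPM in the hypothalamus. All prefrontal cortex libraries exceeded all others, and the log2 fold change was 3.24 ± 0.13. Stard8, a GTPase activating protein, lay at 39.6 to 75.9 CPM (median 51.3) and had the smallest spread of the 20 over animals, an SD of 0.20 on the log2 scale. Its difference from the hippocampus (1.90) was nearly as large as that from the hypothalamus (2.18). Hkdc1, a hexokinase, lay at 18.9 to 37.9 CPM (median 30.8) against medians of 9.13 and 1.72 CPM in the hippocampus and hypothalamus, and Myl4, a myosin light chain, at 17.6 to 50.5 CPM (median 36.6) against 9.60 and 1.81 CPM. Both had a log2 fold change near 3, 2.96 ± 0.06 and 3.10 ± 0.06. Lamp5, a lysosome-associated membrane protein of synapses and of a class of interneurons, lay at 151 to 284 CPM (median 221), against 43.1 to 81.4 CPM (median 65.9) in the hippocampus and 15.1 to 39.7 CPM (median 27) in the hypothalamus. Its log2 fold change was 2.40 ± 0.05, with an SD over animals of 0.21.

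Col4a4, a collagen IV chain of basement membranes, was among the 20, and its neighbour Col4a3, named here after its values were seen, was also cortex-marked. Col4a4 lay at 7.06 to 14.2 CPM (median 10.4) in the prefrontal cortex against medians of 3.12 and 1.67 CPM in the hippocampus and hypothalamus. Col4a3 lay at 4.15 to 9.64 CPM (median 6.48) against 2.0 and 1.29 CPM, and both were above both own regions in 28 of 28 animals. Their log2 fold changes were 2.18 ± 0.07 and 2.03 ± 0.07. These genes lie head to head on chromosome 1 of GRCm38 (Col4a4 at 82448423 to 82586849 on the minus strand, Col4a3 at 82586921 to 82722059 on the plus strand), so that 71 bases lie between their starts. That stretch (chr1:82586850-82586920), shown because it lies between the starts of a pair of cortex-marked genes, held none of the 6 motifs on the Col4a4 strand or its complement.
Col4a4 to Col4a3: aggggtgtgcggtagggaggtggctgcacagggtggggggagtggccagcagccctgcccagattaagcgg

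By level per length (RPKM, CPM divided by the exon length in kilobases), the highest cortex-marked genes were Nrgn, Camk2n1, Stx1a, Zfp365 and Arpp19. Nrgn encodes neurogranin, a postsynaptic calmodulin-binding protein, and had a mean of 1388 RPKM in the prefrontal cortex, 659.7 in the hippocampus and 109.7 in the hypothalamus. It lay at 1456 to 2434 CPM (median 2064) in the prefrontal cortex, with no overlap, and its log2 fold change was 2.38 ± 0.05. Camk2n1, an inhibitor of the calcium and calmodulin-dependent kinase II, had 616, 236 and 109 RPKM in the same order. It lay at 2192 to 3331 CPM (median 2797) in the prefrontal cortex, and the highest library of another region had 1315 CPM. Stx1a, a SNARE protein of synaptic vesicle release, had 122 RPKM, Zfp365 113 RPKM and Arpp19, an inhibitor of protein phosphatase 2A, 95.8 RPKM in the prefrontal cortex.

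The gene lists below group the members by role. Of the genes named from them, all that are given as higher or lower had an adjusted p of 0.00837 (Scnn1a) or less in the contrast (edgeR's quasi-likelihood test). Their counts are to be read beside the shares of all genes called, 37.1% higher and 41.6% lower. The contrast averages over both other regions, so the genes that were higher or lower than in each of them are given as well, beside 24.5% and 27.6% of all genes.

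Transcription factors of cortical projection neurons were mostly higher: 25 of 30 were higher, 3 lower and 2 did not pass, and the median log2 fold change was 0.96 (0.30 against the hippocampus and 1.41 against the hypothalamus). 18 were higher and 2 lower than in each of both regions. The cortex-marked factors included Tbr1, Mef2c, Cux2 and Rorb. Mef2c, an activity-regulated factor of synapse number, lay at 690.2 to 1032 CPM (median 827) in the prefrontal cortex, at 228 to 442 CPM (median 363) in the hippocampus and at 51.8 to 132 CPM (median 81.5) in the hypothalamus. The prefrontal cortex libraries did not overlap with the others, and its log2 fold change was 2.26 ± 0.05. Emx1, a pallial homeodomain factor (2.73 ± 0.09), and Neurod2, a bHLH factor of glutamatergic neurons (2.28 ± 0.11), were higher too, but the part against the hippocampus was small for Neurod2 (0.24 against 4.33 for the hypothalamus). The 3 lower factors were Foxp2 (-0.66 ± 0.06), Nr4a2 (-0.56 ± 0.08) and Dact1, a Wnt signalling modulator (-0.23 ± 0.06).

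Layer markers split more. Of 21 tested, 12 were higher, 5 lower and 4 did not pass, and the median was 0.14, while 7 were higher and 3 lower than in each of both regions. The cortex-marked ones included Tbr1, Lamp5, Cux2 and Rorb. Fezf2, a factor of subcerebral projection neurons of layer 5, was higher by 1.93 ± 0.06, and its median was 45.5 CPM in the prefrontal cortex and 38.9 CPM in the hippocampus. Nxph4 (-1.48 ± 0.09), Cartpt (-1.24 ± 0.09), Ntsr1 (-0.78 ± 0.06), Foxp2 and Scnn1a (-0.19 ± 0.07) were the 5 lower ones. 4 of them had their highest median in the hypothalamus, at 80.6 CPM for Cartpt against 9.20 CPM in the prefrontal cortex.

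Postsynaptic scaffolds and calcium signalling had the largest share of higher genes among the 17 lists of functions. 32 of 34 were higher and 2 lower, with a median of 0.77 (0.39 against the hippocampus and 1.14 against the hypothalamus). 28 of them were higher than in each of both regions, and 21 were so in 28 of 28 animals. Camkk2, a kinase that activates other calmodulin-dependent kinases, lay at 391 to 595 CPM (median 486) against medians of 204 and 97.2 CPM, did not overlap and was cortex-marked (1.78 ± 0.03). Homer1, a scaffold that links metabotropic glutamate receptors to calcium stores (1.62 ± 0.06), and Kalrn, an exchange factor of spine growth (1.57 ± 0.04), followed Nrgn and Camkk2. The 2 exceptions were Camk2d (-0.59 ± 0.03) and Homer3 (-1.23 ± 0.08), whose median was 4.59 CPM in the prefrontal cortex, 17 in the hippocampus and 5.61 in the hypothalamus.

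**Figure D3:**
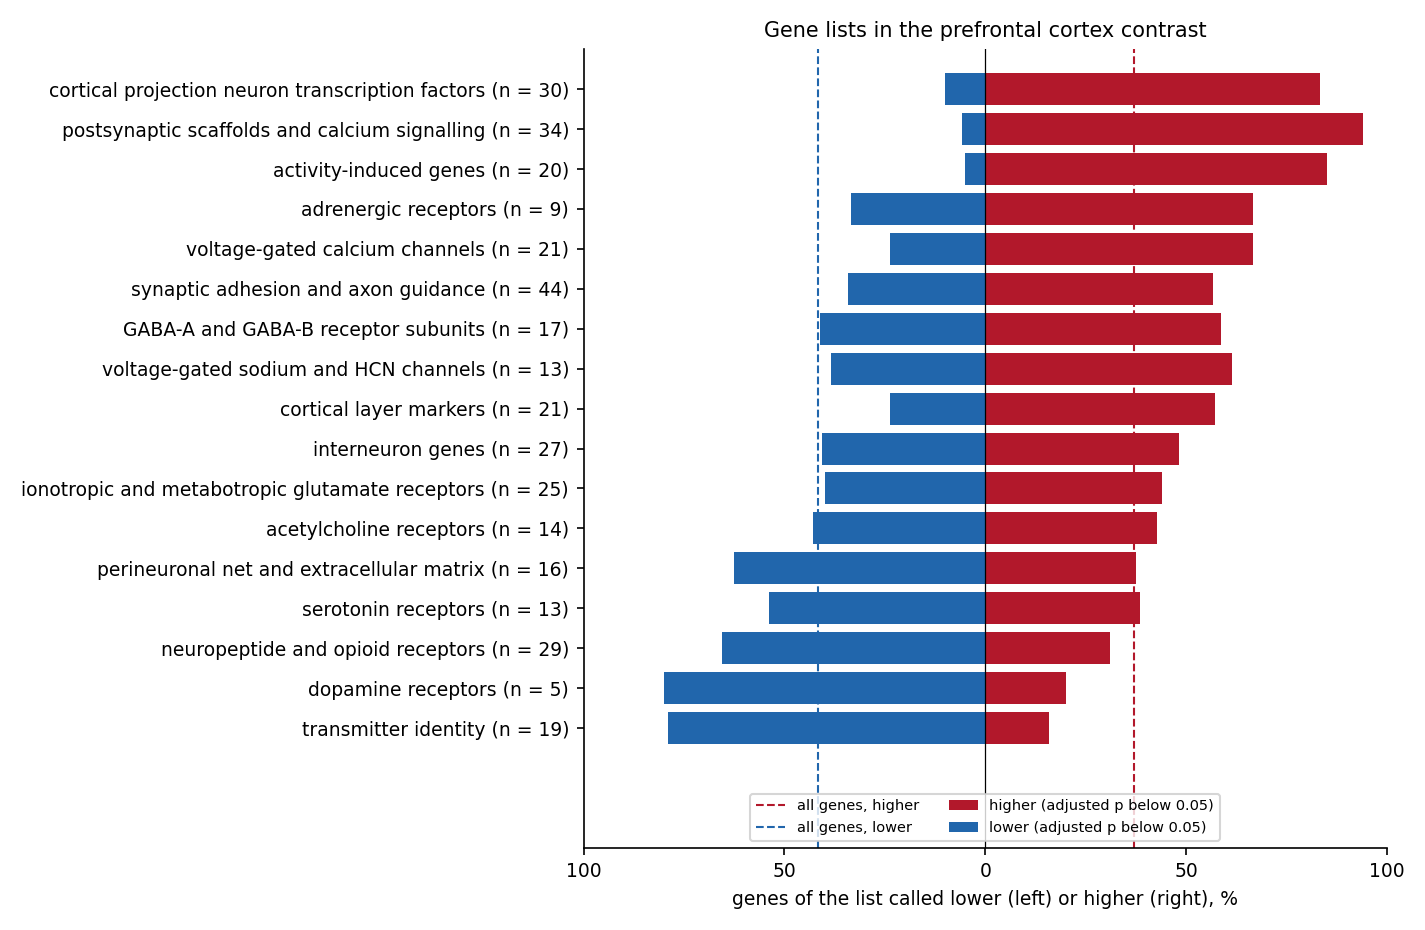
For 17 gene lists (rows, with the number of genes tested), the share of genes called higher (red bars, to the right) or lower (blue bars, to the left) in the prefrontal cortex contrast, in %. Dashed lines give the same shares over all 18753 genes, 37.1% and 41.6%; transcription factors, postsynaptic scaffolds and activity-induced genes stand far to the right, and transmitter identity genes to the left.

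Glutamate receptors divided evenly, with 11 of 25 higher, 10 lower and 4 that did not pass, and with 9 higher and 10 lower than in each of both regions. Grm2, a presynaptic metabotropic receptor (1.35 ± 0.05), the AMPA receptor subunit Gria3 (0.95 ± 0.03) and the NMDA receptor subunits Grin2a (0.90 ± 0.07) and Grin2b (0.78 ± 0.04) were highest. Grin2a was nevertheless lower than in the hippocampus (-0.23, adjusted p 0.00530, edgeR). At the other end stood Grin3b (-1.28 ± 0.11), which was under 1 CPM in the prefrontal cortex. GABA receptors divided too, with 10 of 17 higher, led by the extrasynaptic subunit Gabrd (1.22 ± 0.07), then Gabbr2 (0.76 ± 0.04), Gabra3 (0.70 ± 0.03) and Gabra4 (0.54 ± 0.05), and 7 lower. Of the 17, 7 were higher and 4 lower than in each of both regions. The lowest were Gabre (-4.17 ± 0.13), a subunit of the hypothalamus here, and Gabra6 (-4.39 ± 0.61), a subunit of cerebellar granule cells, which lay at 0 to 249 CPM (median 9.97) in the hippocampus and at most 0.251 CPM in the prefrontal cortex. Why some hippocampus libraries held this gene was not tested.

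Among interneuron genes, 13 of 27 were higher and 11 lower, but 6 were higher and 5 lower than in each of both regions. Lamp5 and Vip were cortex-marked. Vip, a peptide of interneurons that inhibit other interneurons, lay at 32.8 to 62.1 CPM (median 52.1) against medians of 22.7 and 5.64 CPM. Cck (2.09 ± 0.08) and the chromatin organiser Satb1 (1.23 ± 0.03) were higher as well. Tac1 (-1.61 ± 0.11) and Calb2 (-2.32 ± 0.10) were lowest. Sst and Crh, both neuropeptides, did not pass the test, at -0.07 ± 0.06 and 0.04 ± 0.06.

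Receptors of the modulatory systems did not move together. Of 13 serotonin receptor genes, 5 were higher and 7 lower (4 and 5 against each of both regions). Htr2a, the receptor at which classical psychedelics act, was the cortex-marked one, at 17.3 to 35.5 CPM (median 27.2) in the prefrontal cortex, 7.17 to 13.8 CPM (median 11.2) in the hippocampus and 5.55 to 13.7 CPM (median 9.38) in the hypothalamus. The groups did not overlap, and its differences from both regions were close to equal (1.23 and 1.48). Htr1f (1.17 ± 0.06), Htr6 (0.91 ± 0.05) and Htr3a (0.73 ± 0.06) were higher, while Htr2c (-2.02 ± 0.06) and Htr4 (-2.79 ± 0.08) were cortex-marked lower. Htr2c had a median of 18.2 CPM in the prefrontal cortex and 106 CPM in the hypothalamus, and it is also strongly made by the choroid plexus, whose summed markers had medians of 8.91 and 56.1 CPM in these regions and 781 CPM in the hippocampus. The part of choroid plexus in the difference was not tested.

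Of 9 adrenergic receptor genes, 6 were higher and 3 lower, all of them against each of both regions. Adra1d (2.37 ± 0.06), Adrb1 (1.47 ± 0.05), Adra1b (0.88 ± 0.06) and Adrb3 (0.69 ± 0.07) were highest, and the alpha-2 receptors Adra2a (-0.94 ± 0.04) and Adra2b (-2.80 ± 0.16) lowest. Of 14 acetylcholine receptor genes, 6 were higher and 6 lower (5 and 5 against each of both regions), from Chrna5 (1.55 ± 0.13), Chrm1 (1.35 ± 0.06), Chrm3 (1.03 ± 0.03) and Chrnb3 (0.99 ± 0.17) to Chrna6 (-2.96 ± 0.27) and Chrm5 (-4.45 ± 0.13), which marks dopamine neurons of the midbrain. Of 5 dopamine receptor genes, 1 was higher and 4 lower (1 and 2 against each of both regions). The higher one, Drd4, was cortex-marked (1.99 ± 0.13) at a low level of 0.383 to 1.12 CPM (median 0.674). Drd1 (-0.55 ± 0.11), Drd5 (-0.82 ± 0.07), Drd2 (-1.42 ± 0.16) and Drd3 (-3.12 ± 0.25) were the lower ones, although Drd1 was higher than in the hippocampus (0.33). Drd1 and Drd2 are also striatal markers, whose sum had a median of 407 CPM in the prefrontal cortex and 1140.5 CPM in the hypothalamus. The part of striatal cells in those differences was not tested.

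Neuropeptide and opioid receptors were mostly lower, with 9 of 29 higher, 19 lower and a median of -0.68 (-0.18 against the hippocampus and -0.94 against the hypothalamus). 7 were higher and 15 lower than in each of both regions. Cckbr, the cholecystokinin receptor of the forebrain, was the cortex-marked higher one, at 71.2 to 111 CPM (median 84.4) against medians of 37.2 and 13.2 CPM without overlap. Vipr1 (1.72 ± 0.08), the delta opioid receptor Oprd1 (1.23 ± 0.05) and Sstr2 (1.08 ± 0.04) were higher. Cckar, the other cholecystokinin receptor, was lowest of the list at -5.76 ± 0.16, with a median of 0.0233 CPM in the prefrontal cortex and 6.47 CPM in the hypothalamus, so the receptors of this peptide moved in opposite directions. Galr1, a galanin receptor, was next lowest (-4.31 ± 0.11).

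Channel genes leaned upward. Of 21 genes of voltage-gated calcium channels, 14 were higher, led by Cacng3, an AMPA receptor auxiliary subunit (1.23 ± 0.03), Cacnb3 (1.12 ± 0.03), Cacnb4 (0.99 ± 0.03) and Cacna1i (0.82 ± 0.03), and 5 were lower, with Cacng4 (-0.86 ± 0.03) and Cacna2d2 (-1.32 ± 0.04) at the end. Of the 21, 12 were higher and 5 lower than in each of both regions. Of 13 sodium and HCN channel genes, 8 were higher and 5 lower (6 and 4 against each of both regions). Scn4b (0.91 ± 0.09) and Scn8a (0.84 ± 0.03) were among the highest, and Scn9a (-1.36 ± 0.07) and the pacemaker channel Hcn4 (-1.50 ± 0.07) stood lowest.

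Transmitter identity genes were lower in 15 of 19 and higher in 3, with a median of -1.87 (-0.25 against the hippocampus and -1.73 against the hypothalamus). 2 were higher and 8 lower than in each of both regions. Slc17a7, the vesicular glutamate transporter of cortical neurons, was higher (2.45 ± 0.14), but by 0.46 against the hippocampus and 4.44 against the hypothalamus. Dbh, which makes noradrenaline, was higher in the contrast (0.87 ± 0.16) but did not pass against the hippocampus (-0.03, adjusted p 0.897, edgeR), with medians of 0.294 and 0.296 CPM in these regions. Slc17a6, the vesicular glutamate transporter of subcortical neurons, was cortex-marked lower (-2.62 ± 0.08), at a median of 23.5 CPM against 116 and 184 CPM. Slc6a3, the dopamine transporter (-4.79 ± 0.44), and Hdc, which makes histamine (-2.75 ± 0.12), were the lowest of the list. Gad1, which makes GABA, was lower at -0.15 ± 0.02, as was Gad2 at -0.88 ± 0.03. Against the hippocampus Gad1 was higher (0.15), and Gad2 did not pass (-0.04).

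Activity-induced genes were higher in 17 of 20, with a median of 0.68 (0.49 against the hippocampus and 1.38 against the hypothalamus), and 13 were higher than in each of both regions. Egr1, an immediate early gene, was the cortex-marked one and lay at 92.3 to 599 CPM (median 237) in the prefrontal cortex, 47.6 to 199.9 CPM (median 106) in the hippocampus and 27.6 to 102 CPM (median 65.9) in the hypothalamus. Its ranges overlapped, although in each of 28 animals the prefrontal cortex was highest. Egr3 (1.64 ± 0.07), Homer1 and Egr2 (1.47 ± 0.13) were higher too, Jun was lower (-0.55 ± 0.03), and Fos (0.17 ± 0.10) and Fosl2 (0.09 ± 0.05) did not pass. Adhesion and guidance genes were higher in 25 of 44 and lower in 15 (16 and 12 against each of both regions), from Sema7a (1.33 ± 0.04), Plxnd1 (1.30 ± 0.04), Flrt2 (1.08 ± 0.04) and Cdh12 (1.02 ± 0.05) to Ntng1 (-1.40 ± 0.10) and Cbln1 (-3.43 ± 0.18), a synapse organiser of cerebellar granule cells. Genes of perineuronal nets and matrix were higher in 6 of 16, led by the proteoglycan Ncan (0.86 ± 0.04), Hapln1 (0.69 ± 0.04), Hapln4 (0.65 ± 0.04) and Reln (0.45 ± 0.05), and lower in 10, with Hapln2 (-1.04 ± 0.06) and Dcn (-1.46 ± 0.07) lowest. Of these 16, 2 were higher and 8 lower than in each of both regions.

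Some of the genes named from the lists owed their place to 1 region. Of the higher ones, Gabra4, Htr3a, Neurod2, Reln and Dbh did not pass against the hippocampus, and Grin2a and Hapln1 were lower than there (-0.10 for Hapln1, adjusted p 0.0203, edgeR). Of the lower ones, Gad2 and Drd2 did not pass against the hippocampus, and Gad1, Drd1 and Cartpt were higher than there (0.57 for Cartpt). Nr4a2 (0.46) and Scnn1a (0.24) were higher than in the hypothalamus, and Gabra6 did not pass against it.

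The 631 cortex-marked lower genes included 330 with at least 1 CPM in both other regions. The 10 with the largest smaller difference were transcription factors of the diencephalon, midbrain and hindbrain, with the long noncoding transcript Lhx1os and the pituitary hormone gene Gh. Shox2 lay at 0 to 0.307 CPM (median 0.0597) in the prefrontal cortex, 8.68 to 28.7 CPM (median 17.4) in the hippocampus and 0.782 to 64.1 CPM (median 5.33) in the hypothalamus. Lhx9 lay at 0.0512 to 0.357 CPM (median 0.168), 13.6 to 26.7 CPM (median 19.7) and 3.71 to 22.1 CPM (median 6.57) in the same order, and Irx2 at 0 to 0.0892 CPM (median 0.0388), 1.53 to 11.4 CPM (median 5.77) and 1.70 to 6.60 CPM (median 2.62). All 9 besides Gh stayed at or below 0.357 CPM in each prefrontal cortex library, and for 8 of the 10 every prefrontal cortex library lay below every other library, as for 1.11% of all genes. The 10 also held Sox14, En1, Foxb1 and Lhx1, and the adjusted p-values of all 10 in both pairwise contrasts were 3.13e-10 or lower (edgeR). The 10 were taken for the size of these same differences and for their level in both other regions. The count without overlap and the p-values therefore describe them and are no test. Lhx1 and Lhx1os start head to head on chromosome 11 (starts at 84525535 and 84525660 on GRCm38), and they moved alike. Gh was no stable member: it lay at 0 to 2.12 CPM (median 0.00703) in the prefrontal cortex, 0 to 59.2 CPM (median 0.510) in the hippocampus and 0 to 49.9 CPM (median 0.208) in the hypothalamus, and it was lowest in the prefrontal cortex in 16 of 28 animals.

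Markers of other cell types moved with the region. All 11 oligodendrocyte genes (median -0.67), all 6 of oligodendrocyte precursors (-0.35) and all 8 of ependyma (-2.69) were lower in the prefrontal cortex. The summed oligodendrocyte level ran from 2355 to 4438 CPM in the prefrontal cortex, 4079 to 7195 CPM in the hippocampus and 3608 to 7644 CPM in the hypothalamus. Of the other lists, 14 of 14 hypothalamus markers, 11 of 12 thalamus markers, 9 of 10 choroid plexus markers, 8 of 12 hippocampus markers, 7 of 10 astrocyte markers and 5 of 9 markers of meninges and fibroblasts were lower, and 11, 10, 7, 7, 7 and 4 of them in this order were lower than in each of both regions. Striatum markers were lower in 9 of 11, but 1 was lower than in each of both regions. Their median was 0.32 against the hippocampus and -2.17 against the hypothalamus, and their summed level had medians of 407 CPM in the prefrontal cortex, 329 CPM in the hippocampus and 1140.5 CPM in the hypothalamus. Of 6 markers of claustrum and endopiriform nucleus, 4 were lower and 2 higher, 1 of them lower and 0 higher than in each of both regions. Endothelium markers were higher in 7 of 8 (median 0.25), blood markers in 4 of 4 (0.66), microglia markers in 6 of 10 (0.15) and olfactory bulb markers in 5 of 8 (1.0). In this order 6, 4, 4 and 4 were higher than in each of both regions. Of the olfactory bulb markers 3 were lower, and 2 were lower than in each of both regions. Their summed level had medians of 52.65 CPM in the prefrontal cortex, 38 CPM in the hippocampus and 97.17 CPM in the hypothalamus. Of the microglia markers 1 was lower and 3 did not pass. Thalamic markers summed to 411 to 885 CPM in the hippocampus libraries and 161 to 267 CPM in the prefrontal cortex. The part of these cell types in the differences of single genes was not tested.

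Most marks of genes above the minimum level held in every animal. Of the 184 cortex-marked higher genes of at least 1 CPM, 160 were above both own regions in 28 of 28 animals, against 6.25% of all genes and 7.70% of those with at least 1 CPM in the prefrontal cortex, and of the 330 lower genes 257 were below both in 28 of 28, against 4.64% of all genes. Over all marked genes, low levels included, 186 of 262 (71.0%) were above both and 344 of 631 (54.5%) below both in 28 of 28 animals, and the lowest number of animals for a gene was 17 and 8. Being marked already required a large mean difference, so these shares describe the genes and are no test. 100 of the 184 and 129 of the 330 had no library within the range of another region (1.87% and 1.11% of all genes). In single animals, 94% to 100% of the 184 genes were above both own regions (median 98.9%), and the median difference of the 184 lay between 1.64 and 2.17 on the log2 scale. Animal 7 had the lowest share. Its prefrontal cortex library was among the 7 with a high marker sum, that of blood, and its hypothalamus library had the highest Omp of its region, 31.1 CPM against a median of 2.03. Whether either bears on its share was not tested.

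Animal 18, which entered no fit, gave a further prefrontal cortex and hippocampus library. Of the 184 genes, 183 were higher in its prefrontal cortex than in its hippocampus, Gfy being the exception, and 330 of the 330 lower genes were lower. Of all genes called in the fit against the hippocampus, 89.2% of the higher and 87.7% of the lower ones had the same direction in animal 18. The median log2 difference over the 184 was 1.12 in animal 18 and 1.23 in the fit of 28 animals, and over the 330 it was -1.40 and -1.65. The values of animal 18 were taken from CPM with 0.5 added, which shrinks differences at low levels, and the others from the model. Their sizes are therefore not like for like.

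The 5 cortex-marked genes with the smallest spread over animals were Nlk, Car10, Arpp19, Camk2n1 and Ephb6. Nlk, a serine/threonine kinase of Wnt signalling, had a per-animal difference with an SD of 0.09, from 1.26 to 1.63 on the log2 scale, and lay at 185 to 236 CPM (median 207) in the prefrontal cortex. Car10, a catalytically inactive carbonic anhydrase relative, had an SD of 0.13, Camk2n1 0.14, and Ephb6, an Eph receptor without kinase activity, 0.14. Over the 184 genes the median SD was 0.34, and 9 genes exceeded 1. Over all 14836 genes with at least 1 CPM in the prefrontal cortex the median SD was smaller, 0.17, and 58 genes exceeded 1. The 5 with the largest spread were Ltf (SD 2.06), S100a5 (2.04), Ngp (1.85), Ms4a15 (1.83) and S100a8 (1.25).

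**Figure D4:**
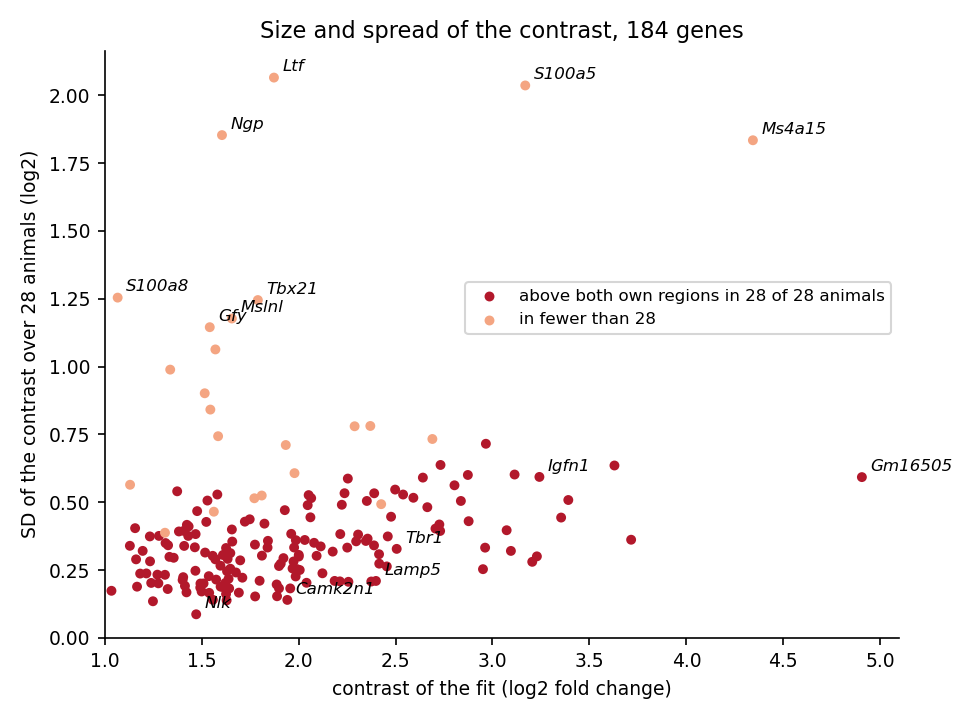
For the 184 cortex-marked higher genes of at least 1 CPM, the log2 fold change of the fit (x axis) and the SD of the per-animal difference over 28 animals (y axis, log2). Dark points are the 160 genes above both own regions in 28 of 28 animals; Ltf, S100a5, Ngp, Ms4a15 and S100a8 stand above the rest.

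The 5 most variable genes stood high in a few libraries each, and 3 sets of libraries are described. S100a5, a calcium-binding protein known from olfactory sensory neurons, had a median of 0.683 CPM in the prefrontal cortex but 21.7 CPM in animal 30, 9.05 in animal 8, 8.29 in animal 29 and 7.92 in animal 23. The genes compared with it here were chosen after their values were seen. Omp, the olfactory marker protein, had 166, 128, 64.8 and 29.8 CPM in the same 4 libraries and 0.477 to 14.4 CPM in the other 24. Stoml3, a stomatin of olfactory cilia, had 45, 25.7, 25 and 4.30 CPM against at most 3.10 CPM in the others, and Cyp2a5, a cytochrome of the nasal mucosa and liver, 89.7, 106, 48.9 and 11.7 CPM against at most 7.96 CPM. So the libraries of animals 8, 29 and 30 stood high in genes of the olfactory mucosa, and that of animal 23 less so. Without these 4 animals 248 genes were cortex-marked higher, of which 243 were among the 262. Gfy, Mslnl and Cdhr1 were among those lost, Cdhr1 by a move from 1.14 to 0.996 against the hippocampus. Rorb, Igfbp4, Tshz3 and Kcnv1 were lost too, and had stood between 1 and 1.05 in their smaller pairwise difference. The log2 fold change of S100a5 went from 3.17 to 2.50 (adjusted p 2.42e-09, edgeR), and against the hypothalamus from 1.89 to 1.23. That of Gfy went from 1.54 to 0.99 and that of Mslnl from 1.66 to 1.25.

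Ms4a15 followed a second set of libraries. It lay at 0.127 to 4.84 CPM (median 1.88) in the prefrontal cortex and was highest in animals 21, 3, 24, 23 and 30. The same 5 libraries were the highest for Cdhr1, a photoreceptor cadherin also found in mitral and tufted cells of the olfactory bulb, at 36.7 to 49.9 CPM against a median of 21.8. Of the 5 highest libraries of Eomes, Tbx21 and Doc2g, markers of those cells, 4 were shared with Ms4a15 in each case. The library of animal 26 was lowest for both Ms4a15 (0.127 CPM) and Cdhr1 (5.18 CPM). In contrast, Camk2n1 differed by a factor of 1.52 between its highest and lowest prefrontal cortex library. Ngp and S100a8, proteins of neutrophil granules and cytoplasm, stood highest in animal 13, at 17.6 and 17.8 CPM. Their medians were 1.13 and 1.83 CPM. Animals 3 and 28 came next for both genes, at 7.55 and 6.21 CPM for Ngp and 7.53 and 7.87 CPM for S100a8. Ltf, lactoferrin of neutrophils and glandular epithelia, stood high both in animals 30 and 8 (35.9 and 24.3 CPM) and in animal 13 (17.4 CPM). In females alone, Ngp (0.78, adjusted p 0.103) and S100a8 (0.57, adjusted p 0.112) did not pass the edgeR test. Gm12407, another of the 9 genes with an SD over 1 and chosen here after its values were seen, did not follow these sets. It lay at 0.0228 to 0.196 CPM in 11 prefrontal cortex libraries and at 1.43 to 4.08 CPM in the other 17, with animals 6, 21, 27, 8 and 2 highest.

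**Figure D5:**
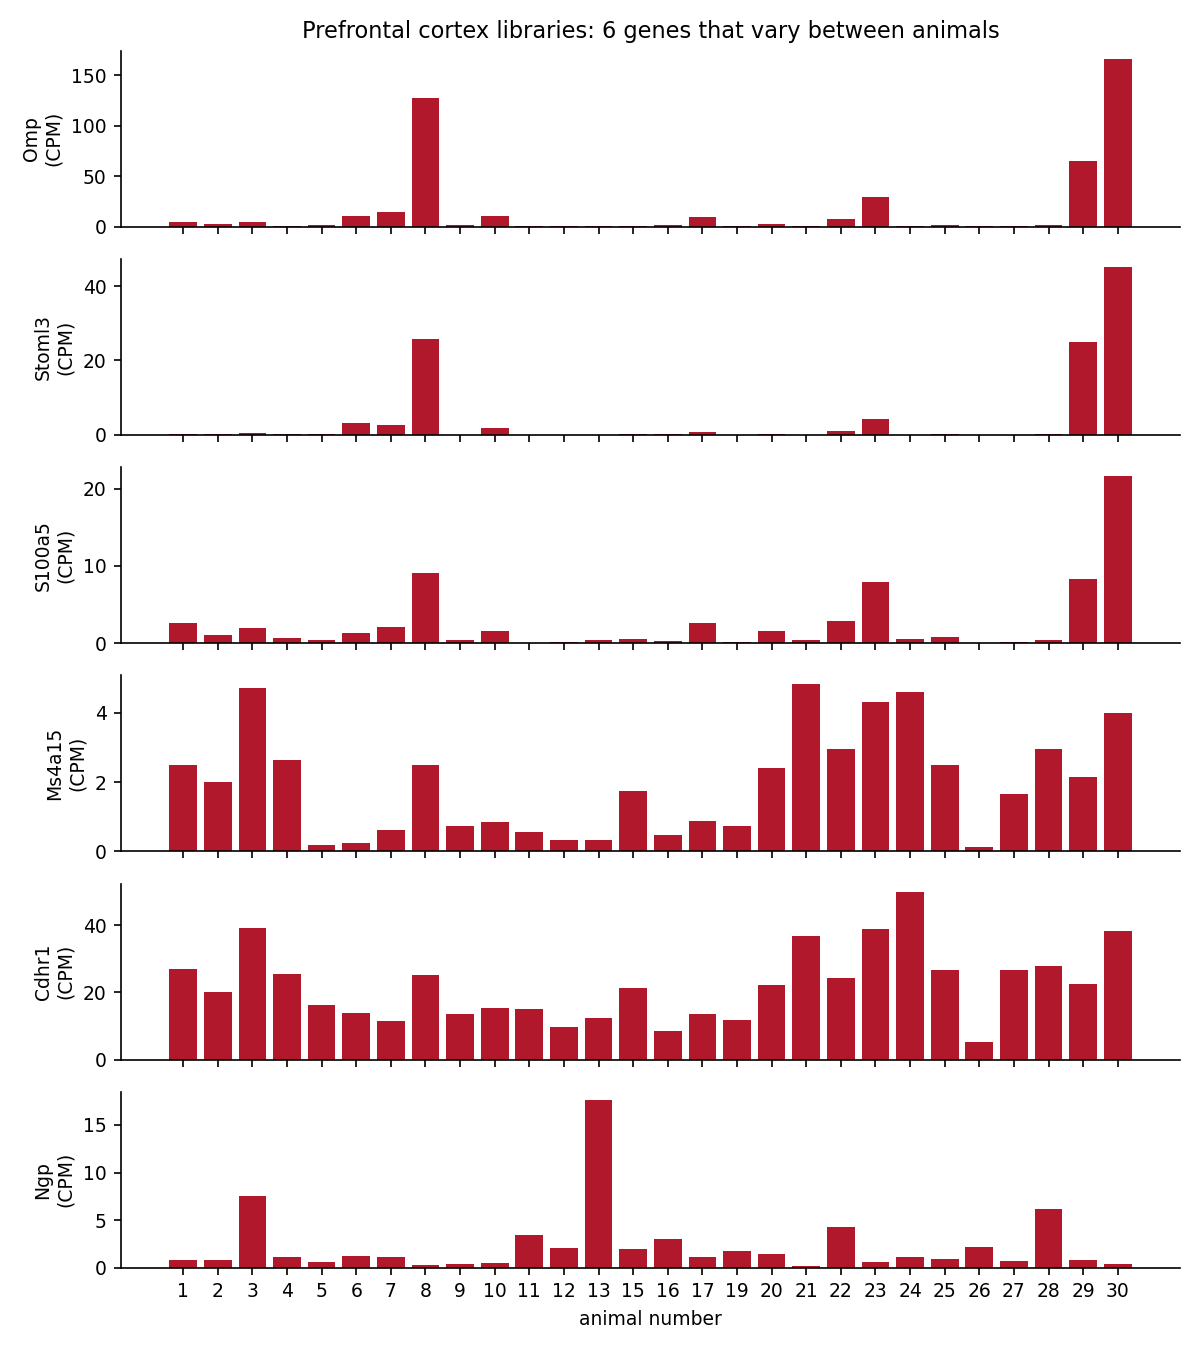
Levels in CPM (y axes, each from 0) of Omp, Stoml3, S100a5, Ms4a15, Cdhr1 and Ngp in the prefrontal cortex library of each of 28 animals (x axis, animal number). Omp and Stoml3 peak in animals 8, 29 and 30 and S100a5 in these and animal 23, Ms4a15 and Cdhr1 in animals 3, 21, 23, 24 and 30, and Ngp in animal 13.

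Whether the marks of the prefrontal cortex differed between the sexes or with social network size was tested as an interaction over all 18753 genes. No gene passed for sex by edgeR (0%), with 691 genes (3.69%) at an unadjusted p under 0.05. The DESeq2 Wald test called 2, Greb1 and the Y-linked Ddx3y (adjusted p 0.999 for Ddx3y by edgeR). Females carry no Y chromosome, so a sex difference in the contrast of Ddx3y cannot be read. No gene passed for network size (0%) with either tool, with 2101 genes (11.2%) at an unadjusted p under 0.05. Among the 184 cortex-marked higher genes, 6 were at an unadjusted p under 0.05 for sex and 9 for network size, shares of 3.26% and 4.89%. The median size of the difference over these 184 genes was 0.0826 for sex and 0.0984 for network size on the log2 scale.

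The contrast of the markers was also read by group. That of Tbr1 was 2.43 ± 0.43 (SD, n = 7) in females with large and 2.67 ± 0.33 in females with small social network sizes, and 2.62 ± 0.29 and 2.42 ± 0.21 in males. In the fit it differed between males and females by -0.02 ± 0.17 (SE) and between small and large network sizes by -0.00011 ± 0.16. For Cux2 these differences were -0.09 ± 0.09 and 0.14 ± 0.09, and for Rorb 0.04 ± 0.11 and 0.07 ± 0.11. The 5 smallest p-values for sex belonged to Greb1 (male minus female -0.49 ± 0.11, adjusted p 0.569 by edgeR and 0.0461 by DESeq2), Pisd-ps2 (-0.26 ± 0.07), Fabp7 (-0.41 ± 0.10), Plekhh2 (-0.22 ± 0.06) and Tmem176a (0.23 ± 0.06). Those for network size belonged to Prelp (small minus large 0.36 ± 0.08, adjusted p 0.235), Gpr17 (0.22 ± 0.05), Serpinb1a (-0.63 ± 0.14), Npy2r (0.49 ± 0.11) and Gm6286 (-1.54 ± 0.36). Without animal 24, Serpinb1a passed (-0.73, adjusted p 0.0168, edgeR).

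Fitted on females alone, 277 genes were cortex-marked higher, and on males alone 254. They shared 217, which is 78.3% of the first list and 85.4% of the second, and all 52 genes of females that were tested in males without being marked there had the same direction in both pairwise contrasts. Fits by network size gave 235 such genes where it was large and 291 where it was small, of which 202 were shared (86% and 69.4%). The 23 genes marked where it was large and not where it was small, of those tested there, had the same direction too. For the lower genes, 613 were marked in females and 605 in males, with 511 shared (83.4% and 84.5%), and of 91 genes of females that were tested but not marked in males 88 had the same direction in both pairwise contrasts. By network size 601 and 637 were marked lower, with 513 shared (85.4% and 80.5%), and 72 of 72 genes marked where it was large and tested but not marked where it was small had the same direction. The direction of genes marked only in males, or only where network size was small, was not checked.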

How the data were processed

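RNA-seq was done on micropunches of prefrontal cortex, hippocampus and hypothalamus from frozen brains of wild house mice. The authors aligned the reads with STAR to GRCm38 and counted them per gene with HTSeq, and they deposited 1 table of raw counts. CASAVA 1.8.2 stands in the submitters' processing notes. The annotation release and the strand setting are not given in the sources used here. Every count column was mapped to a sample by its title.

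From these counts, genes were kept with edgeR's filterByExpr (minimum count 10, minimum total 15, proportion 0.7), scaled by TMM and fitted with edgeR 4.0.16 quasi-likelihood models with animal and region as terms (R 4.3.3). Animal 18 was left out. Adjusted p-values are Benjamini-Hochberg values over all genes tested, with a threshold of 0.05, and SEs are the log2 fold change divided by the square root of F. Differences by sex and by social network size were tested as interactions. The animal is a block because the regions of a number come from 1 mouse: deviations from the region means correlated at 0.23 or more between prefrontal cortex and hippocampus in each of 28 animals, and at 0.31 or more between prefrontal cortex and hypothalamus. The models were also run on simulated counts in which few genes changed. Most genes passed in the real contrast, so that run does not test the models under such wide differences. Each animal gave 1 library per region, so p-values cover the spread between animals and the technical error together.

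Named genes were the markers, the 20 higher and 10 lower cortex-marked genes with the largest smaller pairwise difference, the 5 highest per length, the 4 highest and 2 lowest of each list, the 5 with the smallest and the largest spread, and the 5 smallest p-values of each interaction. Some genes that this rule takes are not reported here. Other genes named were chosen after their values were seen. The members and the gene lists were chosen with earlier results of these data known. Gene positions and types are from GENCODE vM21 (34490 of 35275 genes matched), and promoter sequences from RefSeq on GRCm38.p6. Alternatives were another scaling, other filters on low counts, no animal block, DESeq2 1.42.0, each sex and network size alone, each animal left out, and, added after seeing the data, fits without the animals whose libraries stood apart. Levels are given as CPM and rest on at least 33711824 counts a library.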

Additional observations from a re-analysis of the deposited data

How the results depend on the processing

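The counts of cortex-marked genes depended on the filter and on the minimum size. With all genes of at least 1 count, 30388 genes were tested and 1504 were cortex-marked, 519 higher and 985 lower. With genes of at least 10 counts in every library, 357 were, 131 higher and 226 lower, a filter that removes genes near 0 in any region. A minimum size of 0.5 gave 2605 genes, 1072 higher and 1533 lower, and a size of 2 gave 244, 20 higher and 224 lower. Without the replicate block of the animal, 13782 genes passed in the contrast and 891 were cortex-marked, against 14748 and 893 with it. Leaving out each animal in turn gave 14612 to 14759 genes in the contrast, 873 to 909 cortex-marked genes, 256 to 268 higher and 612 to 644 lower. It gave 0 genes for the difference by sex and 0 to 1 for that by network size, the 1 being Serpinb1a without animal 24. The DESeq2 Wald test gave 2 genes for the difference by sex. Of 6388 values of the contrast for 165 single genes under the alternatives, 6384 kept their direction and their side of the threshold. The others were Ngp and S100a8 in females, S100a8 in animals with small network sizes (0.79, adjusted p 0.0505) and Fosl2 there (0.17, adjusted p 0.0494), all by edgeR. The cause of these changes was not tested. The minimum size was no part of this count, so Rorb counts as kept although it lost its place among the cortex-marked genes. The values include the fits with 1 animal left out, which share all their animals with the main fit and so could differ little from it. Low levels limit the genes under 1 CPM, whose folds depend on few counts.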

Other observations

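Genes of further families, chosen after their values were seen, were among the cortex-marked higher genes, and their values are given without a test of the families. Of 8 Kcnh genes, which encode voltage-gated potassium channels of the ether-a-go-go group, 5 were higher and 3 lower in the contrast. The shares of all genes were 37.1% and 41.6%. All 5 higher ones were cortex-marked, as were 1.40% of all genes. Kcnh7 lay at 176 to 333 CPM (median 213) in the prefrontal cortex, with medians of 86.9 CPM in the hippocampus and 35.5 CPM in the hypothalamus, and its log2 fold change was 1.97 ± 0.04 (SE). Kcnh3 lay at 174 to 344 CPM (median 237), with medians of 106 and 39.2 CPM, and changed by 1.91 ± 0.06. Both were above both own regions in 28 of 28 animals. Kcnh1 (1.17 ± 0.04), Kcnh4 (1.52 ± 0.06) and Kcnh5 (1.38 ± 0.06) followed, and Kcnh5 was no longer cortex-marked without the 7 animals with high marker sums or without the 4 with high Omp. Kcnh2 (-0.63 ± 0.03), Kcnh6 (-0.43 ± 0.04) and Kcnh8 (-2.16 ± 0.11) were the lower ones.

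Other potassium channel genes among the cortex-marked ones were Kcns1 (2.73 ± 0.07) and Kcnv1 (2.09 ± 0.07), which encode modifier subunits that are silent alone, Kcnk4 (1.71 ± 0.04), a leak channel, and Kcnq5 (1.32 ± 0.04), a channel of the M current. All of these were above both own regions in 28 of 28 animals, and Kcnv1 lost its place without the 4 animals with high Omp. Genes best known from striated muscle stood at low levels: Tcap, which caps titin, lay at 4.81 to 12.6 CPM (median 10.1) with medians of 2.98 and 0.419 CPM in the other regions (2.87 ± 0.13). Tnnc1, a troponin, had a median of 8.42 CPM against 2.74 and 2.66 CPM, and Myh1 and Xirp2 stayed at 2.53 CPM or less in each prefrontal cortex library. Of Wnt signalling, the ligands Wnt10a (2.42 ± 0.06) and Wnt9a (1.98 ± 0.08) and the secreted antagonist Frzb (1.77 ± 0.06) were higher in 28 of 28 animals. Wnt10a lay at 8.85 to 18.6 CPM (median 13.9), with medians of 4.57 CPM in the hippocampus and 1.48 CPM in the hypothalamus.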
